A study of Mus musculus with 28 samples.

Results

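The genes described here encode the chains of integrins, the cell-surface receptors for extracellular matrix, and of laminins, the basement membrane proteins that several of those receptors bind. The set is a list of gene symbols, with no threshold on a measured value in its definition, and holds 23 integrin chains and 10 laminin chains, 33 genes of the 18194 that had at least 1 array probe set with a single gene symbol. Where a gene had several such probe sets, the one brightest on average in the 26 tissue arrays was read, and all values are log2 signals, so that a difference of 1 is a doubling. Levels were compared between groups for the same probe set and never between probe sets.

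The arrays came from a mouse model of breast cancer metastasis in Balb/C nude mice, which lack mature T cells. Lung metastases (LungMets, n = 9, collected 50 days after injection) and primary mammary tumors (PT, n = 11, dissected on day 30) grew from 50000 cells of JygMC(A), a single mouse mammary carcinoma line that carried GFP and luciferase per the methods of the study, placed in the fourth mammary gland of young adult females. Normal lung parenchyma (NL, n = 3) and normal mammary gland (NMG, n = 3) came from healthy Balb/C nude mice that received no cells. The same line grown as 3D spheres and as a monolayer gave 1 array each. The methods of the study give injection into the fourth mammary fat pad on both sides, so 1 mouse could give several samples. The labels call the arrays biological replicates but do not say which tumor samples, if any, share a mouse, so the p-values measure the spread between these samples. Every tissue array was whole-tissue RNA, in which tumor cells and host cells are mixed, and fewer cells of a type cannot be told apart from less RNA per cell.

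An integrin is a pair of 1 alpha and 1 beta chain, and the pair decides the ligand. The alpha3, alpha6 and alpha7 chains with beta1, and alpha6 with beta4, bind laminins, and alpha6-beta4 anchors epithelial cells to the basement membrane through hemidesmosomes. Laminins are trimers of an alpha, a beta and a gamma chain and are the main adhesive proteins of the basement membrane that lines mammary ducts, alveoli and vessels. Leukocytes carry their own integrins, most of them built on beta2 or beta7, which serve adhesion to endothelium and to other cells.

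PT replicate 5 and LungMets replicate 9 stood apart from their groups. Over the 18194 genes PT replicate 5 correlated at 0.989 with the mean of LungMets and at 0.968 with the mean of the other PT, whereas LungMets replicate 9 correlated at 0.983 with the mean of PT and at 0.963 with the mean of the other LungMets. The mean level of 10 lung epithelium genes was 10.89 in PT replicate 5, against 5.35 to 7.37 in the other PT, and 6.94 in LungMets replicate 9, against 10.63 to 11.46 in the other LungMets. The list mean lay between 12.34 and 12.42 in NL and between 5.56 and 7.84 in NMG. Both arrays were kept under their labels, and for some of the chains the results that involve them are given with and without them. LungMets and PT were spread over 2 dates in the labels, while NL and NMG each had a date of their own, so that date and tissue cannot be told apart in any comparison with normal tissue.

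In PT against NMG 22 of the 33 chains changed at a limma adjusted p under 0.05, 8 higher and 14 lower, beside 47.7% of all genes (26.7% higher and 21% lower). Requiring a fold change above 2 as well left 3 higher and 14 lower chains, beside 17.2% of all genes in either direction. In LungMets against PT 13 chains changed, 12 higher and 1 lower, beside 15.2% of all genes (9.02% higher and 6.14% lower), and 7 chains, all higher, also passed the fold limit, beside 3.1% of all genes. In LungMets against NL 16 chains changed, 3 higher and 13 lower, beside 46.2% of all genes (23.8% higher and 22.4% lower), of which 3 higher and 10 lower passed the fold limit, beside 16.3% of all genes. In LungMets against NMG 17 chains changed, 8 higher and 9 lower, beside 41% of all genes (23.1% higher and 17.9% lower), of which 4 higher and 8 lower passed the fold limit, beside 13.3% of all genes. The median log2 difference of the chains was -0.17, 0.17, -0.44 and -0.03 in these 4 comparisons, in the order given, and that of all genes was 0.09, -0.02, 0.05 and 0.10. The comparisons share arrays, so their values are set side by side and are not independent of each other. Itga3, Itgb4, Itga4, Itgal and Lama2 changed in all 4 comparisons, and Itga6, Itga2, Itgb5, Itgam, Lama5, Lamb1, Lamc1 and Lamc3 changed in none.

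**Figure D1:**
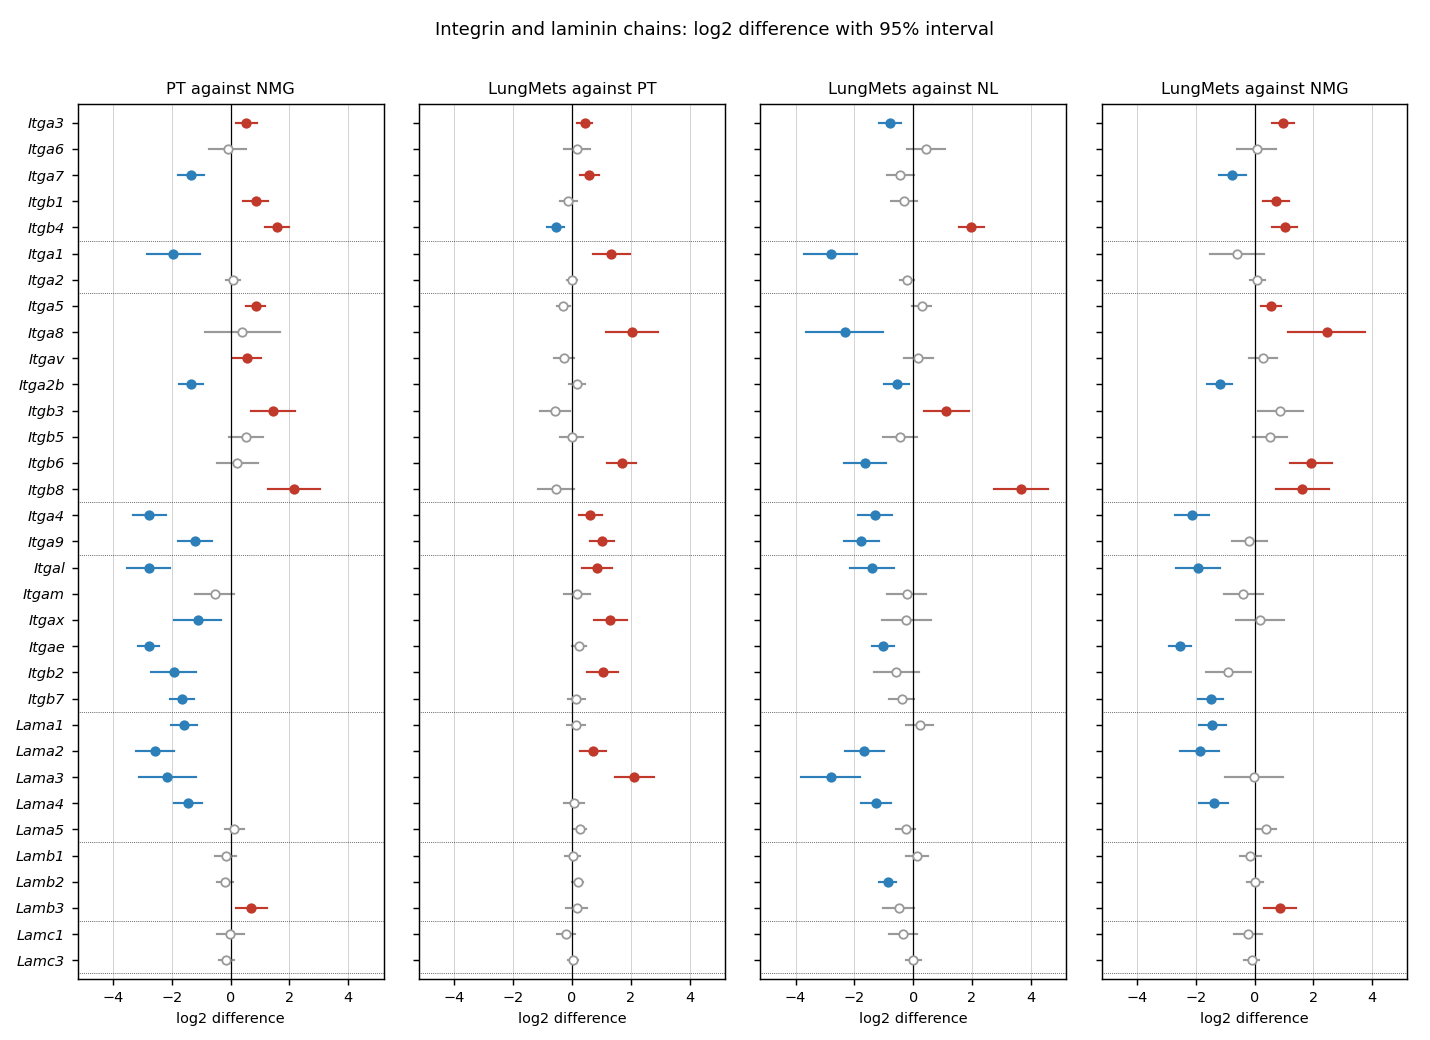
Log2 differences (points) with 95% intervals (lines) of the 33 integrin and laminin chains in 4 comparisons, 1 panel each, that set PT against NMG and set LungMets against PT, NL or NMG, with dotted lines between groups of chains. Filled red points are higher and filled blue points lower at a limma adjusted p under 0.05, and open grey points did not pass: 22, 13, 16 and 17 points are filled.

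Among the laminin-binding integrin chains, Itgb4, which encodes beta4 and pairs only with alpha6, was highest in PT. Its signal was 6.68 at the lowest, 7.49 at the median and 7.97 at the highest in LungMets, and 7.65, 7.93 and 8.52 in PT. In NL it was 5.66, 5.08 and 5.65, and in NMG 6.52, 6.57 and 6.13. Here and below, the values of NL and of NMG listed this way are those of replicates 1, 2 and 3 in order. Every tumor array of either kind lay above every array of normal lung and normal mammary gland, whereas the ranges of LungMets and PT overlapped. Itgb4 was 3.0-fold higher in PT than in NMG (log2 difference 1.58 ± 0.20 (SE), adjusted p = 4.83e-07), 3.93-fold higher in LungMets than in NL (1.97 ± 0.20, adjusted p = 3.29e-08) and 2.05-fold higher in LungMets than in NMG (1.03 ± 0.20, adjusted p = 0.000266). It was the only chain that fell in LungMets against PT, by 0.55 (adjusted p = 0.00774), and by 0.58 without PT replicate 5 and LungMets replicate 9. That fall was called in the whole set and with date as a term (-0.55, adjusted p = 0.0107) but not within either date group (-0.35, adjusted p = 0.273, and -0.69, adjusted p = 0.205).

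The partner of beta4 did not follow this pattern. Itga6, which encodes alpha6, ranged from 8.68 to 9.83 in LungMets, from 8.10 to 9.79 in PT, from 8.66 to 8.97 in NL and from 8.77 to 9.56 in NMG, and no comparison passed the test. Its difference in PT against NMG was -0.10 with a 95% interval of -0.73 to 0.53, and in LungMets against NL 0.42 with an interval of -0.22 to 1.07, so that changes of the size seen for Itgb4 lie outside both intervals. A second Itga6 probe set averaged 7.76 in PT and 8.54 in NMG, and 7.77 in LungMets and 8.47 in NL.

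Itga3, the alpha chain of a laminin receptor of many epithelia, rose by 0.54 in PT against NMG (adjusted p = 0.014), by 0.43 in LungMets against PT (adjusted p = 0.0182) and by 0.98 in LungMets against NMG (adjusted p = 0.00014), and fell by 0.80 in LungMets against NL (adjusted p = 0.000819). The PT against NMG call was lost when NMG replicate 1 or 3 was left out. Itgb1, the beta chain shared by most laminin, collagen and fibronectin receptors, rose by 0.85 in PT against NMG (adjusted p = 0.00121) and by 0.73 in LungMets against NMG (adjusted p = 0.00659). Between LungMets and PT it differed by -0.12, with an interval of -0.41 to 0.17, but by 0.54 (adjusted p = 0.000313) when its 6 probe sets were averaged.

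Itga7, whose product is best known as the laminin receptor of muscle, went the other way. Its lowest, median and highest signals were 4.26, 5.11 and 6.01 in LungMets and 4.17, 4.50 and 4.89 in PT. It read 5.86, 5.50 and 5.40 in NL, and 5.51, 5.93 and 6.25 in NMG. All 11 PT lay below all 3 NMG, and 7 of 9 LungMets lay above all PT, LungMets replicate 9 being the lowest of its group. Itga7 was lower in PT than in NMG (-1.34 ± 0.22, adjusted p = 2.04e-05), higher in LungMets than in PT (0.59 ± 0.15, adjusted p = 0.00959) and lower in LungMets than in NMG (-0.75 ± 0.23, adjusted p = 0.0101). The last call was lost without NMG replicate 3 (-0.57, adjusted p = 0.102), and Itga7 was called lower in LungMets than in NL only without LungMets replicate 8 (-0.55, adjusted p = 0.0259). Beside it, 7 of 8 smooth muscle genes were lower in PT than in NMG, with a list mean of 5.48 to 6.65 in PT and 7.83 to 8.08 in NMG, whereas 0 of 6 skeletal muscle genes were called in limma, with a list mean of 4.23 to 7.88 in PT and 4.43 to 5.48 in NMG. The part of muscle cells in this difference was not tested.

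**Figure D2:**
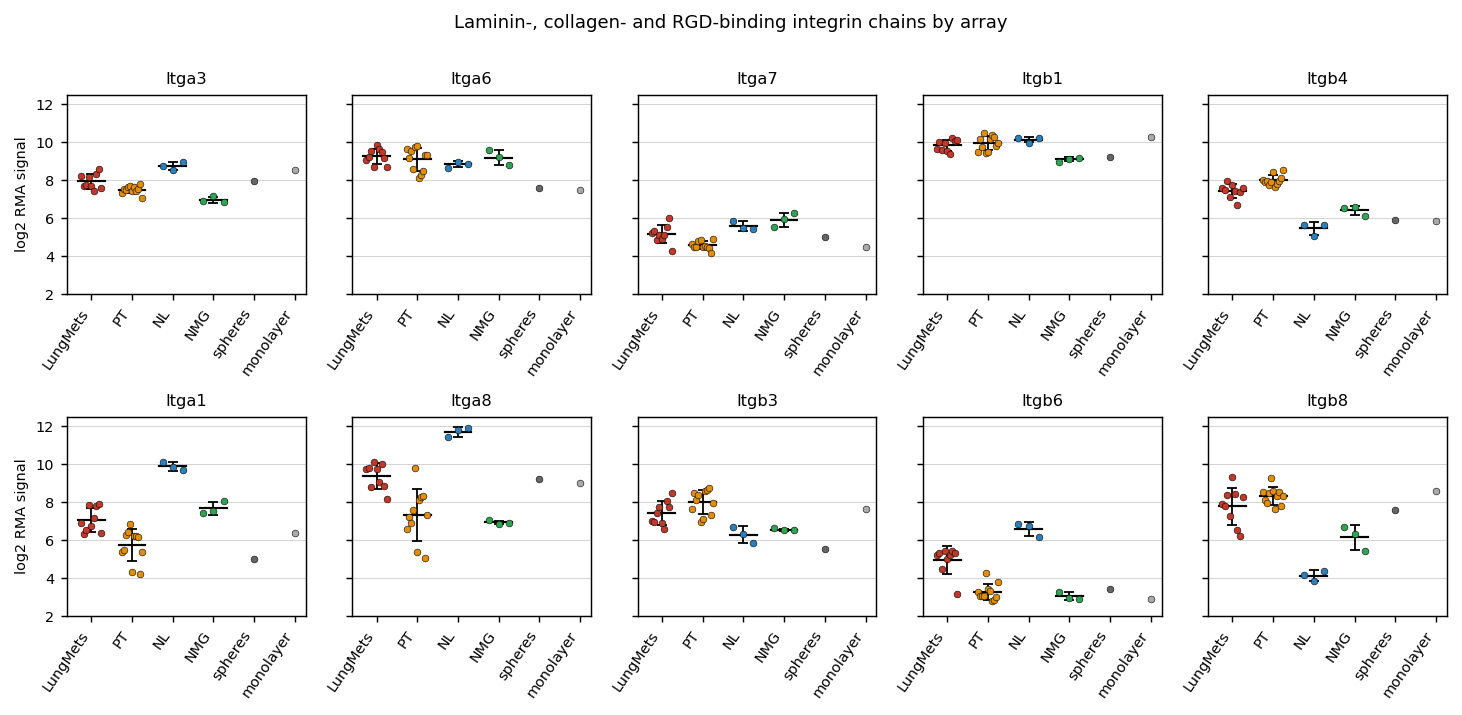
Log2 signal (y axis) of 10 integrin chains in every array of LungMets, PT, NL, NMG, spheres and monolayer (x axis), with points for arrays and bars for the mean ± SD where a group has over 1 array. Itgb4 is above all normal arrays in every LungMets and PT, Itgb8 in every PT, and Itga8, Itga1 and Itgb6 are highest in NL.

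Of the 2 alpha chains of collagen receptors that the set holds, Itga1 changed and Itga2 gave no call. Itga1 had a lowest, median and highest signal of 6.30, 6.90 and 7.92 in LungMets and of 4.22, 6.19 and 6.83 in PT. NL gave 10.11, 9.87 and 9.67, and NMG gave 7.43, 7.51 and 8.07. The tumors of both sites were below the normal tissue of that site in every array: all 11 PT were below all NMG, and all 9 LungMets below all NL. Itga1 fell by 1.95 in PT against NMG (adjusted p = 0.000632) and fell by 2.81 in LungMets against NL (adjusted p = 1.3e-05), rose by 1.34 in LungMets against PT (adjusted p = 0.0032), and differed by -0.60 in LungMets against NMG (adjusted p = 0.29). A second, dimmer Itga1 probe set averaged 5.44 in LungMets, 4.49 in PT, 6.92 in NL and 4.53 in NMG. It thus did not show the fall in PT against NMG and was higher in LungMets than in NMG. Itga2 stayed between 4.93 and 5.64 on all tissue arrays, and its 4 differences ran from -0.20 to 0.10 without a call.

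Among the chains that bind RGD-containing ligands, Itgb8 and Itgb3 were higher in the tumors. Itgb8 encodes the beta chain that, with alphav, binds latent TGF-beta. Its lowest, median and highest signals were 6.24, 7.89 and 9.31 in LungMets and 7.62, 8.35 and 9.28 in PT. It read 4.18, 3.83 and 4.38 in NL, and 6.71, 6.35 and 5.43 in NMG. No tumor array came down to the NL range, all 11 PT exceeded all NMG, and 7 of 9 LungMets exceeded all NMG. Itgb8 was 12.7-fold higher in LungMets than in NL (3.66 ± 0.44, adjusted p = 3.23e-07), the largest absolute difference of any chain in the 4 comparisons. It was 4.47-fold higher in PT than in NMG (2.16 ± 0.43, adjusted p = 0.000202) and 3.10-fold higher in LungMets than in NMG (1.63 ± 0.44, adjusted p = 0.00465, not called without NMG replicate 3). LungMets and PT differed by -0.53, with an interval of -1.14 to 0.08.

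Itgb3, the beta chain of the vitronectin receptor and of the platelet fibrinogen receptor, was spread from 6.60 through a median of 7.43 to 8.50 in LungMets and from 6.97 through 8.13 to 8.73 in PT. Its signals were 6.70, 6.34 and 5.85 in NL, and 6.62, 6.53 and 6.51 in NMG. All PT and 8 of 9 LungMets were above all NMG arrays. It was higher in PT than in NMG (1.44 ± 0.36, adjusted p = 0.00189) and in LungMets than in NL (1.13 ± 0.37, adjusted p = 0.0143), whereas LungMets against NMG missed the threshold (0.88 ± 0.37, adjusted p = 0.0596) but passed without LungMets replicate 5 (0.94, adjusted p = 0.048) or 6 (0.98, adjusted p = 0.0342). The LungMets against NL call was lost without NL replicate 3 (0.91, adjusted p = 0.104) and when the probe sets of the gene were averaged (0.49, adjusted p = 0.0592). Itgb3 differed by -0.56 in LungMets against PT (adjusted p = 0.135), passed as lower when its probe sets were averaged (-0.44, adjusted p = 0.036) or without LungMets replicate 9 alone (-0.70, adjusted p = 0.0464), and fell by 0.80 when PT replicate 5 and LungMets replicate 9 were left out (adjusted p = 0.0137). Those arrays held the lowest PT value, 6.97, and the highest LungMets value, 8.50.

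Its alpha partner on platelets, Itga2b, moved in the other direction. Itga2b read 6.11, 6.83 and 7.83 at the lowest, median and highest of LungMets and 6.36, 6.68 and 6.86 in PT. It read 7.57, 7.47 and 7.19 in NL, and 8.21, 7.80 and 8.06 in NMG. Every PT was below every NMG, and 8 of 9 LungMets were below every NL. Itga2b fell by 1.36 in PT against NMG (adjusted p = 4.24e-06), by 1.18 in LungMets against NMG (adjusted p = 5.46e-05) and by 0.56 in LungMets against NL (adjusted p = 0.0253), the last not called without NL replicate 1 or 2. Among 6 other platelet genes 2 were higher and 1 lower in PT than in NMG, with list means of 4.84 to 5.17 in PT and 5.02 to 5.15 in NMG. The LungMets array with the highest Itga2b, replicate 7, also had the highest mean of those genes, 7.07, against 4.95 to 5.61 in the other LungMets.

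Itga8, which encodes the alpha chain of the nephronectin receptor, and Itgb6, which encodes an epithelial beta chain that pairs with alphav and binds latent TGF-beta, were highest in normal lung. Itga8 had a lowest, median and highest signal of 8.16, 9.74 and 10.12 in LungMets and of 5.04, 7.35 and 9.81 in PT. It read 11.41, 11.78 and 11.91 in NL, and 7.04, 6.85 and 6.90 in NMG. The highest PT value was that of replicate 5 and the lowest LungMets value that of replicate 9. Itga8 rose by 2.05 in LungMets against PT (adjusted p = 0.00187), or by 2.45 without those 2 arrays (adjusted p = 3.1e-05), rose by 2.45 in LungMets against NMG (adjusted p = 0.00326) and fell by 2.32 in LungMets against NL (adjusted p = 0.00402). PT and NMG differed by 0.40 with an interval of -0.88 to 1.67, and PT spread over a wider range than any other group.

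Itgb6 read 3.18, 5.23 and 5.42 at the lowest, median and highest of LungMets and 2.80, 3.08 and 4.26 in PT. Its signals in NL were 6.87, 6.77 and 6.17, and those in NMG were 3.28, 2.94 and 2.91. Most PT and NMG values were near the mean of the Y-linked genes taken as a guide to low signal (2.86 to 3.23 over the tissue arrays), so that Itgb6 was not clearly above the floor of the arrays there and the differences from those groups are differences from a signal near that floor. Itgb6 rose by 1.69 in LungMets against PT (adjusted p = 0.000119) and by 1.91 in LungMets against NMG (adjusted p = 9.85e-05), and fell by 1.65 in LungMets against NL (adjusted p = 0.000372). Of 9 LungMets 8 exceeded all PT, and the exception was replicate 9. Without that array and PT replicate 5 the rise over PT was 2.01 (adjusted p = 1.82e-10).

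The remaining RGD-binding chains moved little. Itga5, the alpha chain of the fibronectin receptor, rose by 0.85 in PT against NMG (adjusted p = 9.27e-05) and by 0.55 in LungMets against NMG (adjusted p = 0.00831), both lost when its 4 probe sets were averaged (0.38 and 0.22, adjusted p = 0.0701 and 0.321), and the second also without NMG replicate 3 (0.48, adjusted p = 0.0642). In LungMets against PT Itga5 differed by -0.30 (adjusted p = 0.0674) and passed as lower, by -0.34 or -0.33, when LungMets replicate 9 or PT replicate 5, 6 or 10 was left out. Itgav, the alpha chain shared by several of these receptors, rose by 0.56 in PT against NMG (adjusted p = 0.0478), a call that 12 alternatives removed, leaving out single PT arrays among them. Itgb5 ranged from 8.03 to 9.58 on the tumor arrays and passed the test in no comparison, though it did in PT against NMG without PT replicate 10 (0.62, adjusted p = 0.0491).

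Itga4 and Itga9 encode related alpha chains, which bind VCAM1 and tenascin among other ligands. Itga4 had a lowest, median and highest signal of 5.66, 6.15 and 6.66 in LungMets and of 4.58, 5.61 and 6.58 in PT. It read 7.66, 7.69 and 7.27 in NL, and 8.38, 8.36 and 8.44 in NMG. No tumor array reached a normal array of either tissue. Itga4 fell by 2.77 in PT against NMG (adjusted p = 1.16e-08), by 2.14 in LungMets against NMG (adjusted p = 1.47e-06) and by 1.29 in LungMets against NL (adjusted p = 0.000563). It rose by 0.63 in LungMets against PT (adjusted p = 0.0254), which became 0.57 without PT replicate 5 and LungMets replicate 9 (adjusted p = 0.0511). That call was also lost without LungMets replicate 4 (0.58, adjusted p = 0.0538) or 7 (0.59, adjusted p = 0.0558).

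Itga9 read 5.98, 6.69 and 7.48 at the lowest, median and highest of LungMets and 4.92, 5.79 and 6.25 in PT. NL gave 8.77, 8.29 and 8.45, and NMG gave 7.06, 6.88 and 6.82. All PT were below all NMG, all LungMets were below all NL, and 6 of 9 LungMets were above all PT. Itga9 fell by 1.21 in PT against NMG (adjusted p = 0.000947) and by 1.77 in LungMets against NL (adjusted p = 1.83e-05), and rose by 1.02 in LungMets against PT (adjusted p = 0.00084). The first of these calls was lost when its 3 probe sets were averaged.

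Most of the laminin chains called against normal tissue were alpha chains that fell. In PT against NMG 4 of 5 alpha chains fell, Lama5 being the exception, and of 5 beta and gamma chains 1 rose and 4 gave no call, beside 21% of all genes lower. In LungMets against NMG Lama1, Lama2 and Lama4 fell and Lamb3 rose, beside 17.9% of all genes lower, and in LungMets against NL Lama2, Lama3, Lama4 and Lamb2 fell, beside 22.4%. The difference between the alpha chains and the other chains was not tested. The median log2 difference of the alpha chains in PT against NMG was -1.59, that of the beta chains -0.17 and that of the gamma chains -0.08.

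Lama2 encodes the alpha chain of the laminin of muscle and peripheral nerve. Its signal was 6.10, 6.75 and 7.40 at the lowest, median and highest of LungMets and 5.11, 6.17 and 6.83 in PT, against 8.69, 8.16 and 8.37 in NL and 8.16, 8.50 and 9.16 in NMG. Tumor and normal arrays did not overlap. Lama2 fell by 2.58 in PT against NMG (adjusted p = 3.03e-07), by 1.87 in LungMets against NMG (adjusted p = 5.47e-05) and by 1.67 in LungMets against NL (adjusted p = 0.000147), and rose by 0.71 in LungMets against PT (adjusted p = 0.0283). The rise was lost within either date group, and without LungMets replicate 2, 4, 7 or 8 or PT replicate 10 it was 0.66, 0.67, 0.65, 0.62 and 0.61, in that order, with adjusted p from 0.051 to 0.0632.

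Lama4 encodes the alpha chain of vessel laminins. It read 6.93, 7.54 and 8.00 at the lowest, median and highest of LungMets and 6.44, 7.66 and 7.96 in PT, against 8.92, 8.68 and 8.72 in NL and 8.81, 8.68 and 9.18 in NMG. Again no tumor array reached a normal array, while LungMets and PT covered nearly the same range and differed by 0.06 with an interval of -0.27 to 0.40. Lama4 fell by 1.45 in PT against NMG (adjusted p = 1.77e-05), by 1.39 in LungMets against NMG (adjusted p = 6.41e-05) and by 1.27 in LungMets against NL (adjusted p = 0.00013). Of 10 endothelial genes 7 were lower in PT than in NMG and 10 lower in LungMets than in NL, with list means of 6.64 to 8.98 in LungMets, 4.92 to 7.73 in PT, 10.27 to 10.42 in NL and 7.54 to 7.80 in NMG. The part of vessel content in the Lama4 differences was not tested.

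Lama1, an alpha chain known from embryonic basement membranes, was low outside the mammary gland. It read 3.32, 3.78 and 4.04 at the lowest, median and highest of LungMets and 3.31, 3.62 and 4.18 in PT, against 3.86, 3.50 and 3.37 in NL and 5.66, 5.78 and 4.28 in NMG. NMG replicate 3 lay close to the tumors and the other NMG well above them. Lama1 fell by 1.59 in PT against NMG (adjusted p = 1.47e-06) and by 1.44 in LungMets against NMG (adjusted p = 1.27e-05).

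Lama3 encodes the alpha chain of the epithelial laminin that alpha6-beta4 binds. It had a lowest, median and highest signal of 4.60, 6.63 and 7.60 in LungMets and of 3.67, 4.07 and 6.41 in PT, against 9.45, 9.35 and 8.96 in NL and 6.65, 6.80 and 5.96 in NMG. PT replicate 5 held the highest PT value and LungMets replicate 9 the lowest LungMets value, and 10 of 11 PT were below all NMG. Lama3 fell by 2.15 in PT against NMG (adjusted p = 0.000536) and by 2.81 in LungMets against NL (adjusted p = 3.76e-05), and rose by 2.12 in LungMets against PT (adjusted p = 0.000134), or by 2.56 without those 2 arrays (adjusted p = 2.05e-09). LungMets and NMG differed by -0.03, with an interval of -1.02 to 0.96. A second Lama3 probe set averaged between 4.18 and 4.23 in all 4 tissue groups. The PT median of 4.07 was low beside the mean of the Y-linked genes (2.86 to 3.23 in PT), so the differences from PT are differences from a low signal.

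The beta chain of that epithelial laminin, Lamb3, did not share the fall of Lama3. It rose by 0.70 in PT against NMG (adjusted p = 0.0275) and by 0.86 in LungMets against NMG (adjusted p = 0.0112), and both calls were lost without NMG replicate 3. Its signal ranged from 6.66 to 7.72 in LungMets, from 6.33 to 7.96 in PT, from 7.61 to 7.91 in NL and from 5.93 to 6.65 in NMG. Lamb2 fell by 0.87 in LungMets against NL (adjusted p = 1.39e-05) and was called nowhere else. Lama5, a widely expressed alpha chain, Lamb1, Lamc1, the gamma chain of most laminins, and Lamc3 gave no call, and their differences in PT against NMG lay between -0.17 and 0.13. Lama5 came closest in LungMets against NMG (0.39, adjusted p = 0.0536), and passed there without PT replicate 5 and LungMets replicate 9 (0.40, adjusted p = 0.0488) and without LungMets replicate 4 (0.41, adjusted p = 0.0481) or 7 (0.43, adjusted p = 0.0321).

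**Figure D3:**
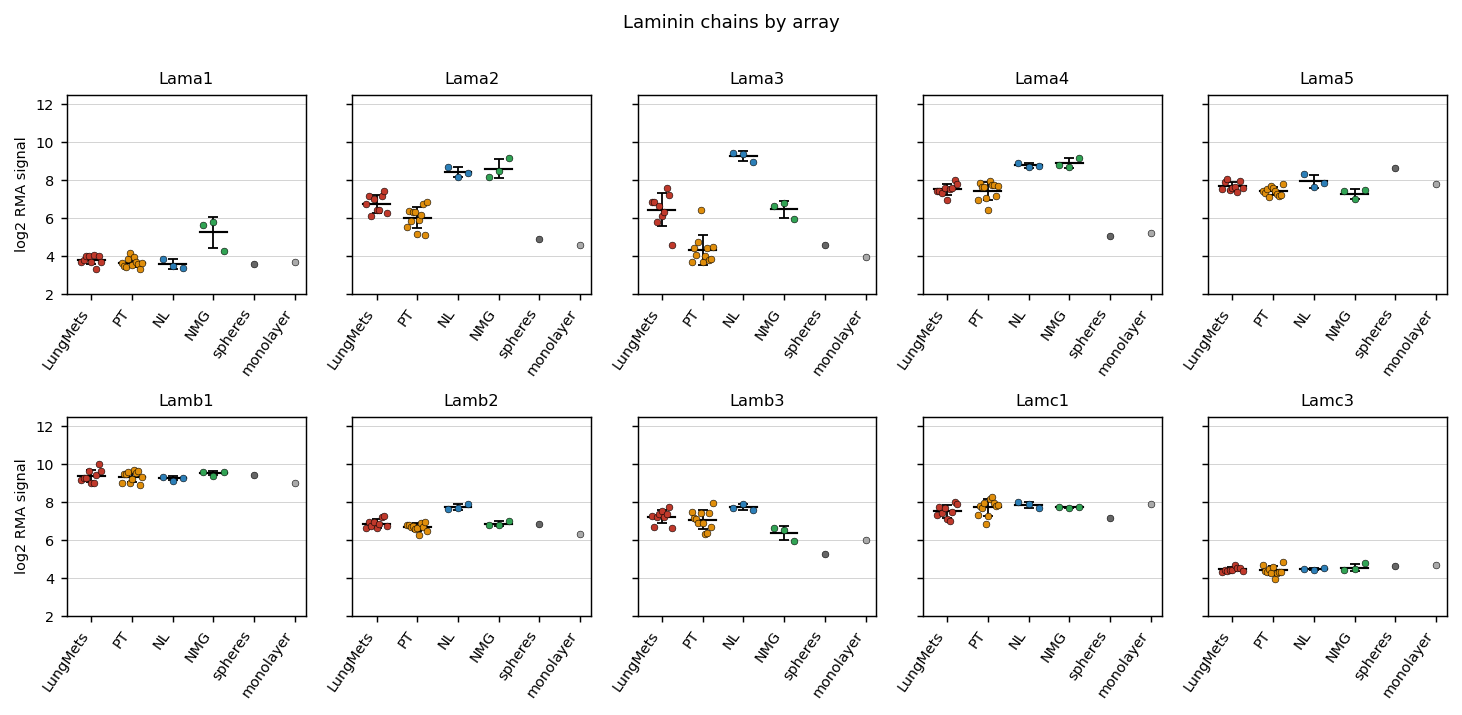
Log2 signal (y axis) of the 10 laminin chains in every array of LungMets, PT, NL, NMG, spheres and monolayer (x axis), with points for arrays and bars for the mean ± SD where a group has over 1 array. Lama2 and Lama4 are lower in every LungMets and PT than in any normal array, whereas the ranges of Lamb1, Lamc1 and Lamc3 overlap between tumor and normal tissue.

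Of the 6 leukocyte integrin chains 5 fell in PT against NMG, beside 21% of all genes, with a median log2 difference of -1.79 over the 6, and Itgam gave no call. Leukocyte genes moved beside them: 5 of 5 general leukocyte genes, 6 of 6 B lymphocyte genes, 8 of 9 T and NK lymphocyte genes, 4 of 6 neutrophil genes and 3 of 9 macrophage genes were lower in PT than in NMG, and none of these genes was higher. The mean of the 5 general leukocyte genes was 8.34 to 9.80 in LungMets, 6.86 to 9.77 in PT, 9.46 to 9.78 in NL and 10.89 to 11.04 in NMG, and 3.68 in spheres and 4.19 in monolayer. In LungMets against PT 1 of the 5 general leukocyte genes, 4 of 6 neutrophil genes, 2 of 9 T and NK lymphocyte genes, 0 of 9 macrophage genes and 0 of 6 B lymphocyte genes were higher in limma, and none was lower. The part of leukocyte content in the differences of these chains was not tested.

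Itgal encodes alphaL, which with beta2 forms the leukocyte receptor for ICAM proteins. It read 6.58, 7.40 and 7.57 at the lowest, median and highest of LungMets and 5.17, 6.35 and 7.59 in PT, against 8.77, 8.78 and 8.16 in NL and 8.97, 9.18 and 9.15 in NMG. No tumor array reached a normal one. Itgal fell by 2.78 in PT against NMG (adjusted p = 5.92e-07), by 1.93 in LungMets against NMG (adjusted p = 0.000149) and by 1.41 in LungMets against NL (adjusted p = 0.00259), and rose by 0.84 in LungMets against PT (adjusted p = 0.0207).

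Itgb2 encodes beta2, the partner of alphaL, alphaM and alphaX. It read 7.70, 8.71 and 9.23 at the lowest, median and highest of LungMets and 6.20, 7.83 and 8.39 in PT, against 9.17, 9.75 and 8.63 in NL and 9.30, 9.47 and 9.70 in NMG. All tumor arrays were below all NMG, and LungMets overlapped NL. Itgb2 fell by 1.94 in PT against NMG (adjusted p = 0.000106) and rose by 1.05 in LungMets against PT (adjusted p = 0.00574), and LungMets against NL (-0.58) and against NMG (-0.89) missed the threshold (adjusted p = 0.21 and 0.0599), the second of which passed without LungMets replicate 1 (-0.96, adjusted p = 0.0446).

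Itgae and Itgb7, whose products pair to bind E-cadherin on epithelia, stood out in NMG. Itgae read 4.41, 4.81 and 5.10 at the lowest, median and highest of LungMets and 4.18, 4.60 and 5.10 in PT, against 5.71, 6.36 and 5.33 in NL and 7.53, 7.09 and 7.37 in NMG. Itgb7 read 5.16, 5.72 and 6.32 in LungMets and 5.12, 5.71 and 5.97 in PT, against 6.49, 5.89 and 6.05 in NL and 7.22, 7.24 and 7.25 in NMG. For both genes every tumor array was below every NMG array. Itgae fell by 2.79 in PT against NMG (adjusted p = 4.34e-12), by 2.55 in LungMets against NMG (adjusted p = 4.4e-11) and by 1.02 in LungMets against NL (adjusted p = 6.11e-05). Itgb7 fell by 1.65 in PT against NMG (adjusted p = 3.72e-07) and by 1.49 in LungMets against NMG (adjusted p = 3.53e-06), and LungMets and NL differed by -0.39 (adjusted p = 0.126).

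Itgam and Itgax encode alphaM and alphaX, the myeloid partners of beta2, and lie next to each other on the same strand of chromosome 7, with only a pseudogene between them in the RefSeq annotation. Itgax read 6.84, 7.32 and 7.95 at the lowest, median and highest of LungMets and 4.98, 6.27 and 7.40 in PT, against 7.93, 7.66 and 7.25 in NL and 7.14, 7.32 and 7.13 in NMG. The LungMets values lay in the range of the normal tissues or near it, and 9 of 11 PT lay below all NMG. Itgax rose by 1.30 in LungMets against PT (adjusted p = 0.0018) and fell by 1.11 in PT against NMG (adjusted p = 0.0215), a call lost when any 1 NMG array was left out. Itgam ranged from 4.32 to 5.41 in LungMets and from 3.82 to 5.65 in PT and was not called in any comparison. It differed by 0.16 in LungMets against PT, with an interval of -0.28 to 0.61. Itgam was read from a single probe set.

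The 250 bases before the start that the RefSeq promoter table gives for these neighboring genes are shown because the genes share a locus and a partner chain, and in LungMets against PT Itgax rose and Itgam did not pass the test. The difference between the 2 genes was not itself tested. They are RefSeq sequence of build GRCm38.p6, plus strand, chr7:128062390-128062639 for Itgam and chr7:128129300-128129549 for Itgax, whose window ends inside the annotated gene, since that begins at 128129526. In all, 21 of the 33 chains had an entry in that promoter table. Capitals mark GAGGAA or its reverse complement TTCCTC, the core of sites for the myeloid factor PU.1.
Itgam: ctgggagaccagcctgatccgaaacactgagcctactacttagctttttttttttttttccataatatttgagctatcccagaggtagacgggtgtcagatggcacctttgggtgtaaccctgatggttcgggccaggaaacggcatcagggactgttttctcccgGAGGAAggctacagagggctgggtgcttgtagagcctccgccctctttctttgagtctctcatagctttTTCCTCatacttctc
Itgax: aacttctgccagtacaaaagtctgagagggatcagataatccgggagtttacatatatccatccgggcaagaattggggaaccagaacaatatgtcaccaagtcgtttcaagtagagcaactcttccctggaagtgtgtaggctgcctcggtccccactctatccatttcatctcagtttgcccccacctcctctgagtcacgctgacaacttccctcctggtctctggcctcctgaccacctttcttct
The Itgam window held 2 matches, 1 on each strand, and the Itgax window held 0. Over all 32851 promoter windows of this length 23.3% held at least 1 match on either strand, so the presence of these letters in 1 window and not in the other is a description of the sequence. TATAAA, in either direction, was found in neither window and in 12.4% of all windows.

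**Figure D4:**
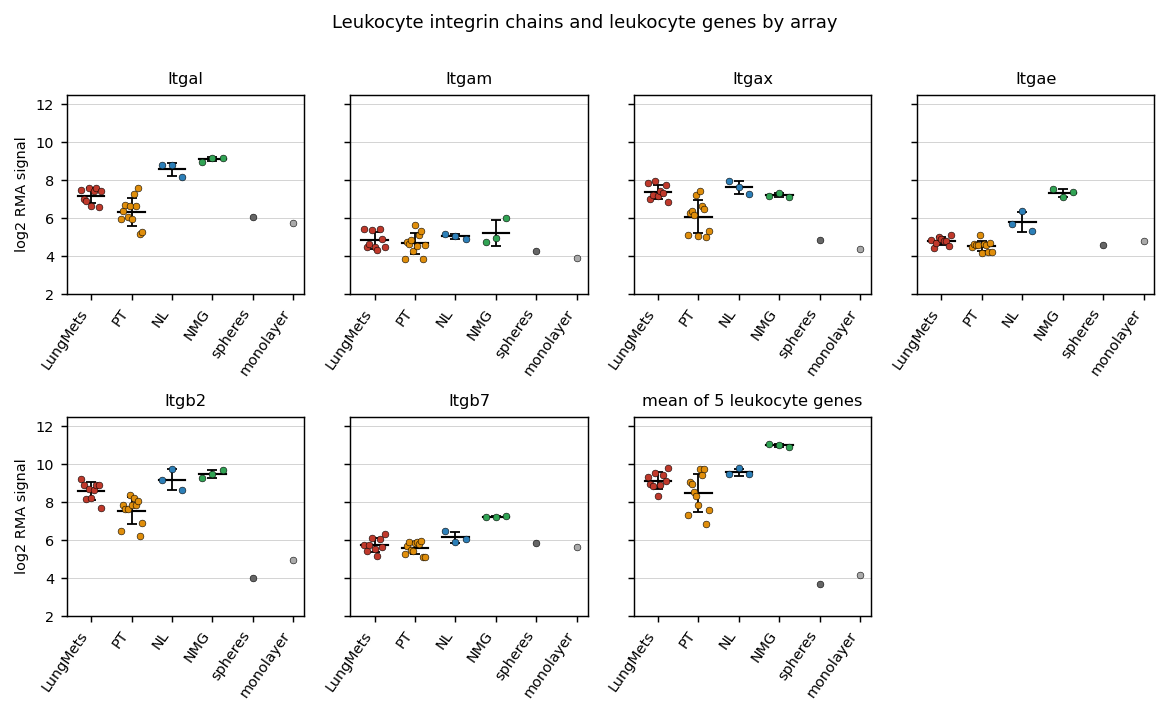
Log2 signal (y axis) of the 6 leukocyte integrin chains and the mean of 5 general leukocyte genes in every array of LungMets, PT, NL, NMG, spheres and monolayer (x axis), with points for arrays and bars for the mean ± SD where a group has over 1 array. The mean of the leukocyte genes is 10.89 to 11.04 in NMG and 6.86 to 9.77 in PT, and Itgal, Itgae, Itgb2 and Itgb7 are lower in every PT than in any NMG.

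The 13 chains called in LungMets against PT were examined within the dates given in the labels, since 4 LungMets and 4 PT shared the first date and 5 LungMets and 7 PT the second. With the date as a term 13 chains were called, the same 12 higher and 1 lower, beside 2480 of all genes. All 13 had the same direction in both date groups. They were chosen in the fit that pools these same arrays, which favors equal directions, so this is not a separate test. In the first date group alone 7 chains were called, all higher, beside 1393 of all genes, 1025 higher and 368 lower. The 7 were Itga7, Itga8, Itgb6, Itgal, Itgax, Itgb2 and Lama3, whereas Itga3, Itgb4, Itga1, Itga4, Itga9 and Lama2 were not called. In the second date group alone, which holds both arrays that stood apart, limma called 0 chains and 0 genes, while 9 chains and 2670 genes, 14.7% of all, had an unadjusted p under 0.05. Leaving out those 2 arrays there, an alternative chosen after seeing the data, gave 5 called chains: Itga7, Itga1, Itgb6, Itga9 and Lama3. Beside these 5 chains, 1081 of all genes were called. No chain passed a test of the difference between the date groups in the contrast.

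Over the whole set 14 chains were called once PT replicate 5 and LungMets replicate 9 were dropped, 12 of them among the 13, with Itga4 lost and Itga5 (-0.37, adjusted p = 0.0157) and Itgb3 (-0.80) gained as lower. The number of all genes called in that fit is not given here. Beside the rise of the 12 chains, 9 of 10 lung epithelium genes and 9 of 10 endothelial genes were higher in LungMets than in PT, with median log2 differences of 5.48 and 1.64. For 4 chains, Lama3, Itga8, Itgb6 and Itgb2, PT replicate 5 was the highest PT and LungMets replicate 9 the lowest LungMets. The part of lung tissue in these differences was not tested.

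**Figure D5:**
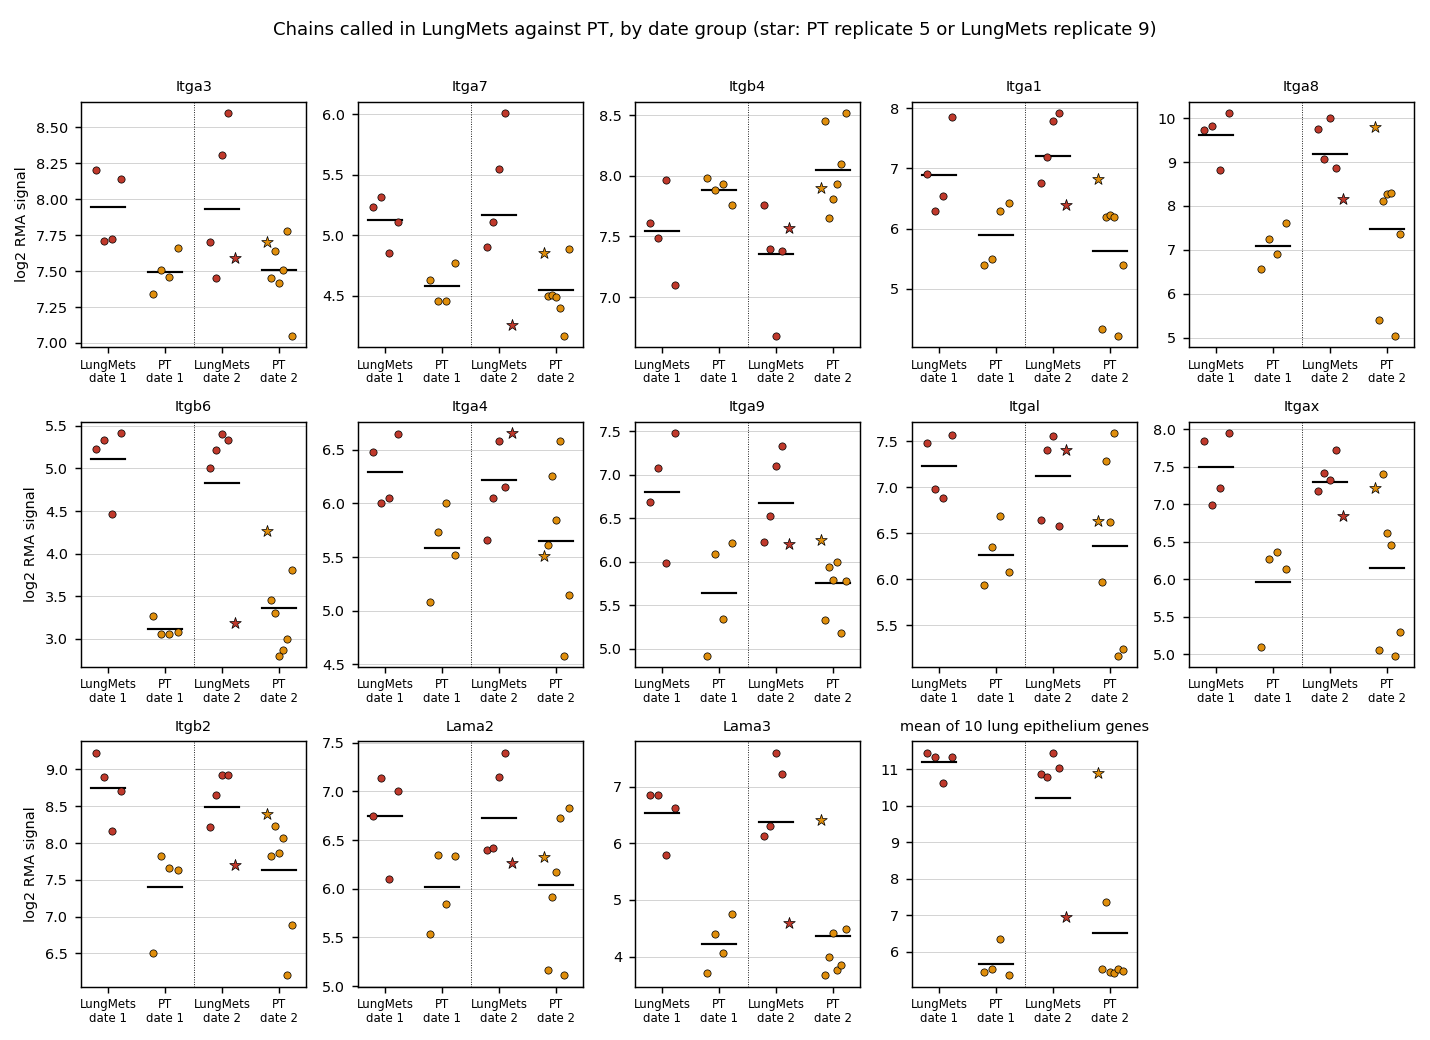
Log2 signal (y axis) of the 13 chains called in LungMets against PT and of the mean of 10 lung epithelium genes, for LungMets and PT within each date group of the labels (x axis), with lines for means, circles for arrays and stars for PT replicate 5 and LungMets replicate 9. All 13 chains, which were chosen from these same arrays pooled, have the same direction in both date groups. The starred LungMets is the lowest of all LungMets for Itgb6, Itga8, Lama3, Itga7, Itgb2 and Itgax.

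In all, 6 pairs of chains, taken as receptor partners, as receptor and ligand or as chains of 1 laminin, were correlated across the 11 PT by two-sided permutation tests with adjustment over the 6, and none passed. Without PT replicate 5, Itga6 with Itgb4 (r = 0.70, adjusted p = 0.046), Itga3 with Lama5 (r = -0.76, adjusted p = 0.0283) and Itgam with Itgb2 (r = 0.77, adjusted p = 0.0283) passed by r. By rank correlation (rho) none of these pairs passed there (adjusted permutation p = 0.143, 0.148 and 0.184, in that order). In the 11 PT, Itga6 and Itgb4, the chains of 1 receptor, gave r = 0.61 (p = 0.0444, adjusted p = 0.141) and rho = 0.63 (p = 0.0433, adjusted p = 0.26), and r = 0.42 without the 2 PT farthest from the median of Itga6. Itgam and Itgb2 gave r = 0.61 (p = 0.0472, adjusted p = 0.141) and rho = 0.33 (p = 0.326, adjusted p = 0.465), and r = 0.49 without the 2 farthest. Itgb4 and Lamb3, receptor and ligand, gave r = 0.52 (p = 0.0988, adjusted p = 0.143) and rho = 0.49 (p = 0.131, adjusted p = 0.394). Itga7 and Lama2 gave r = 0.54, Itga3 and Lama5 r = -0.49, and Lama3 and Lamb3, which form 1 laminin, r = 0.22, with adjusted permutation p = 0.143, 0.143 and 0.516. Without the 2 farthest PT, r of Itga3 with Lama5 was 0.04 and r of Itgb4 with Lamb3 was 0.51. With probe sets averaged, Itga3 with Lama5 gave r = -0.66 (adjusted permutation p = 0.0787), and -0.45 without the 2 farthest PT. Without PT replicate 5, leaving out the 2 farthest of the other PT gave -0.46 for this pair. Within the 7 PT of the second date group r was 0.70 for Itga6 and Itgb4 and 0.49 for Itgam and Itgb2, and neither passed the exact permutation test (p = 0.0938 and 0.274).

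The cultured line gave 1 array in each form, so no difference between the forms can be tested, and its RNA was isolated with another kit than that of the tissues. Itgb4 read 5.89 in spheres and 5.82 in monolayer, below every PT, and Itga6 read 7.57 and 7.50, also below every PT. Itgb8 read 7.57 in spheres and 8.60 in monolayer, near or inside the range of PT. Itga8 read 9.21 and 8.99, below PT replicate 5 (9.81) but above every other PT, of which the highest read 8.3. The leukocyte chain Itgb2 read 4.00 and 4.93, and the laminin alpha chains Lama2 and Lama4 read 4.92 and 5.03 in spheres and 4.58 and 5.22 in monolayer, all below every PT. For 8 of the 33 chains both cultures were below every PT and for 3 both were above. Spheres were lower than monolayer by over 1 log2 unit for 4 chains and higher by that much for 0. The 4 were Itgb3 (5.53 against 7.63), Itga1 (4.99 against 6.36), Itgb1 (9.20 against 10.29) and Itgb8. These culture counts were made for the 33 chains only, so how they compare with all genes is not known.

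Other genes of the pathway were read from 4 lists. Of 13 other basement membrane genes, 4 rose and 1 fell in PT against NMG, 4 rose and 2 fell in LungMets against PT, 2 rose and 5 fell in LungMets against NL, and 6 rose and 2 fell in LungMets against NMG. In that order, 38.5%, 46.2%, 53.8% and 61.5% of the list were called, beside 47.7%, 15.2%, 46.2% and 41% of all genes. Whether any of the 4 lists differed from all genes was not tested. Col4a6, a type IV collagen chain that, like Itgb4, was highest in PT, averaged 6.86 in LungMets, 7.55 in PT, 4.49 in NL and 4.76 in NMG, a rise of 2.79 in PT against NMG (adjusted p = 1.32e-11). Its partner chain Col4a5 rose by 2.06 in that comparison (adjusted p = 1.09e-06). Col4a3 and Col4a4, the chains of the alveolar basement membrane, averaged 6.84 and 7.76 in LungMets, 4.17 and 4.32 in PT, 9.53 and 10.64 in NL and 4.03 and 4.12 in NMG.

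Of 9 other laminin receptors and hemidesmosome genes, 3 rose and 1 fell in PT against NMG, 2 rose and 0 fell in LungMets against PT, 2 rose and 4 fell in LungMets against NL, and 4 rose and 1 fell in LungMets against NMG. In that order, 44.4%, 22.2%, 66.7% and 55.6% of the list were called, beside 47.7%, 15.2%, 46.2% and 41% of all genes. Col17a1, a hemidesmosome collagen that joins alpha6-beta4, fell by 2.34 in PT against NMG (adjusted p = 0.00022) and by 2.36 in LungMets against NMG (adjusted p = 0.000356), a direction opposite to Itgb4. Sdc4, a syndecan, rose by 1.39 in PT against NMG (adjusted p = 3.37e-06), Bcam, a receptor for laminins with the alpha5 chain, fell by 1.84 in LungMets against NL (adjusted p = 3.92e-05), and Rpsa, a ribosomal protein gene also described as a laminin receptor, rose by 0.96 in LungMets against NL (adjusted p = 7.85e-08).

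Of 18 measured integrin adaptor and focal adhesion genes, 1 rose and 4 fell in PT against NMG, 2 rose and 0 fell in LungMets against PT, 0 rose and 10 fell in LungMets against NL, and 1 rose and 4 fell in LungMets against NMG. In that order, 27.8%, 11.1%, 55.6% and 27.8% of the list were called, beside 47.7%, 15.2%, 46.2% and 41% of all genes. Fermt3, the kindlin of blood cells, fell by 2.22 and Ptk2b, a focal adhesion kinase relative, by 2.60 in PT against NMG (adjusted p = 6.85e-05 and 6.08e-07), beside the leukocyte chains. Lims2 and Parvb, 2 members of the adaptor complex around Ilk, fell by 2.20 and 2.06 in LungMets against NL (adjusted p = 6.21e-06 and 1.49e-05).

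Of 15 measured ligands other than laminin, 2 rose and 5 fell in PT against NMG, 3 rose and 2 fell in LungMets against PT, 4 rose and 4 fell in LungMets against NL, and 2 rose and 3 fell in LungMets against NMG. In that order, 46.7%, 33.3%, 53.3% and 33.3% of the list were called, beside 47.7%, 15.2%, 46.2% and 41% of all genes. Npnt, the nephronectin ligand of the receptor that Itga8 encodes, averaged 7.88 in LungMets, 4.33 in PT, 11.20 in NL and 5.36 in NMG, and rose by 3.54 in LungMets against PT (adjusted p = 0.000119). Vcam1, a ligand of the Itga4 product, differed by -3.19 in PT against NMG (adjusted p = 5.58e-05), and Vtn, which encodes vitronectin, by -3.19 in the same comparison (adjusted p = 1.58e-12). Icam2, a ligand of the Itgal product found on endothelium, fell by 3.10 in LungMets against NL (adjusted p = 1.98e-05).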

How the data were processed

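Biotin-labelled RNA of 26 tissue samples and 2 cell line cultures was measured on 3' expression arrays, 1 array a sample. Per the labels, the authors summarised and normalized the arrays by RMA in Partek software and deposited the values on a log2 scale, 1 column an array; the RMA settings are not given in the sources used here. RMA background correction and quantile normalization compress low signals and give all arrays nearly the same distribution (array medians 5.04 to 5.18), so values are relative to other genes of the array and depth does not apply. The number of arrays limits the precision. The 28 columns matched the labels, and 0 columns belonged to no listed sample.

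Of 45101 probe sets, 34958 had 1 symbol in the platform annotation, 932 several and 9211 none; the 18194 genes were each read from their brightest single-symbol probe set over the tissue arrays. All 33 chains matched RefSeq GRCm38.p6 by gene ID. limma 3.58.1 in R 4.3.3 fitted 1 mean per group over the 26 tissue arrays (lmFit, eBayes), two-sided, adjusted p-values over all genes by the Benjamini-Hochberg method, and called those under 0.05. Paired chains were correlated across PT with two-sided permutation tests (100000 resamples) in Python. The fit was tested on simulated data.

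The 33 chains, the other gene lists and the alternatives were chosen with earlier results of these data known. Sample values are given for the 19 chains called with an absolute log2 difference of 1 or more in at least 1 comparison, and up to 4 called genes with the largest difference are named per pathway list. Alternatives were the mean of probe sets, a filter on low genes, other scaling, array weights, 2-group fits, ANOVA without moderation, a fold limit, a replicate block, date terms and leaving out arrays. The cell line arrays entered no test.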

Additional observations from a re-analysis of the deposited data

Results flagged for a closer look

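The 33 chains were checked for a single array far from the rest in LungMets, the only group of 4 to 10 arrays, and 2 of the 33 had such an array at a rule that flags about 1 in 20 groups by chance. Both were LungMets replicate 9. Itgav read 11.01 there, against 10.27 in the next LungMets, and Itgb6 read 3.18, against 4.46 in the next. The mean of the lung epithelium genes in this array was 6.94, and its part in the 2 values was not tested.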

How the results depend on the processing

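Leaving out 1 array at a time gave 18 to 23 called chains in PT against NMG, 11 to 15 in LungMets against PT, 15 to 17 in LungMets against NL and 13 to 18 in LungMets against NMG. Beside them 6763 to 8913, 1998 to 3208, 6756 to 8572 and 5352 to 7651 of all genes were called, in that order. The labels number replicates alike in all groups, but the numbers were not taken to pair the samples: as deviations from the group means, 7 of 9 pairs of PT and LungMets with 1 number correlated above 0.1, not all, and 0 of 9 PT correlated best with the LungMets of its own number. With a replicate block 21, 15, 20 and 20 chains were called in these comparisons, beside 8573, 2817, 8974 and 7955 of all genes. Lamb3 was lost in the first, and Itgav (-0.36) and Itgb3 (-0.64) were gained as lower in the second. Itgb1, Itgb5, Itgb7 and Lamc1 were gained in the third, and Itgb3, Itgb2 and Lama5 in the fourth. Counts that moved by over 1.5 times were as follows. With a fold limit of 2, all genes called were 3137, 564, 2962 and 2422, and the chains called in LungMets against PT were 7. Among genes above the median level, all genes called were 5342 in PT against NMG, 5300 in LungMets against NL and 4261 in LungMets against NMG, with 11 chains called in the last, where fewer genes were tested. In LungMets against PT array weights called 4157 genes, the first date group alone 7 chains and 1393 genes, the second alone 0 chains and 0 genes, and the second without PT replicate 5 and LungMets replicate 9 5 chains and 1081 genes, in fits with fewer arrays. In that comparison 1642 genes were higher and 1117 lower, but 1431 and 1654 with arrays centred on their median, 1429 and 1596 after a further quantile step and 932 and 1020 among genes above the median level, while 12 chains were higher and 2 lower under either scaling. Of the chain differences 1 reversed: Itgb1 in LungMets against PT was 0.54 (adjusted p = 0.000313) with its probe sets averaged. Without PT replicate 5 the correlations of Itga6 with Itgb4 (0.70), Itga3 with Lama5 (-0.76) and Itgam with Itgb2 (0.77) passed by r but not by rho. The cause was not tested. Low signal limits Itgb6, Lama1, Itgam and Lamc3, and Lama3 in PT.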

Other observations

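The reversal of Itgb1 came from 1 of its 6 probe sets. That probe set averaged 7.65 in LungMets, 3.65 in PT, 9.32 in NL and 2.88 in NMG, while the probe set used for Itgb1 averaged 9.83, 9.94, 10.14 and 9.09 in those groups. Among PT its value was 7.43 in replicate 5 and 2.86 to 3.69 in the other 10, and among LungMets it was 3.87 in replicate 9 and 7.52 to 9.0 in the other 8. The mean of the lung epithelium genes set the same 2 arrays apart, at 10.89 and 6.94. What transcript this probe set reads was not tested, and it was chosen for mention after its values were seen. The closest pair of all arrays was PT replicate 5 and LungMets replicate 5, with a correlation of 0.995 between their levels over the 18194 genes and no identical columns.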
